A study of Mus musculus with 18 samples.

Results

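The genes of oxidative phosphorylation were examined by genome of origin. Members were all genes whose symbol names a subunit or a close partner of the respiratory complexes, that is, symbols beginning Nduf, Uqcr, Atp5 or Cox4 to Cox8, the Sdh genes a to d, and the protein-coding mt-Nd, mt-Co, mt-Cytb and mt-Atp genes. This rule took 105 of 30905 genes, 92 encoded in the nucleus and 13 in the mitochondrial genome. The rule uses gene symbols alone, although it was set with earlier results of these data known. Single-nucleus RNA-seq (10x Genomics) had been carried out on 2 brain regions, hippocampus and prefrontal cortex (PFC), from 9 Kun Ming mice at 8 weeks of age. Of these, 3 were germ-free (GF) and 3 were specific pathogen free (SPF). The remaining 3, the colonized GF (CGF) mice, were GF mice that shared an isolator with SPF mice for their last 4 weeks. Kun Ming is an outbred stock, and no group carried a transgene or an engineered allele. GF and CGF mice lived in isolators and SPF mice did not, so the housing and the microbiota of the SPF group cannot be told apart. Each mouse gave 1 library of each region, 18 in all, and the preparation dates of the libraries are not given in the sources used here.

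Of 139924 barcodes, 1924 with over 10% mitochondrial UMIs (unique molecular identifiers, the counted RNA molecules) were left out, and these fell unevenly: 646 in the hippocampus of GF mice, 114 of SPF and 68 of CGF, and 273, 470 and 353 in PFC. Marker lists assigned 102705 nuclei to excitatory neurons, interneurons, astrocytes, oligodendrocytes, oligodendrocyte precursor cells (OPC) or microglia. Since the same lists assigned the nuclei, the level of a class's own markers is a description and no check of its identity. Summed over the marker list, excitatory neurons held 2800 to 4441 CPM (counts scaled to a total of 1000000) of their own list in the 18 libraries and microglia 6985 to 11458. Slc1a3, an astrocytic glutamate transporter, was also high in the microglial sums (1915 to 3990 CPM), while the other 8 astrocyte markers there reached at most 89.9. Library depth was 49067853 to 63217083 UMIs in the hippocampus. In PFC it was 59126586 to 71463928 in GF mice but only 20336250 to 26949210 in SPF and CGF mice, so that depth moved with the group in that region. Counts per nucleus differed in the hippocampus too. The median of a library was 4593 to 5809.5 UMIs for GF mice, below the 6132 to 7054 of SPF mice, while CGF mice (5444.5 to 7559.5) overlapped both. In hippocampal excitatory neurons every GF median (6676 to 7055) lay under all SPF medians (9088.5 to 10269) and all CGF medians (8340.5 to 10865). The part of counts per nucleus in the hippocampal results was not tested. Any pair of libraries shared 6 to 29 barcodes, at most 0.362% of a library.

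Oxidative phosphorylation couples electron transport along complexes I to IV of the inner mitochondrial membrane to ATP synthesis by complex V. Complex I oxidises NADH, complex II oxidises succinate, complex III passes electrons to cytochrome c, complex IV reduces oxygen, and complex V is the ATP synthase. Complexes I, III, IV and V are built from proteins of both genomes, while complex II is wholly nuclear encoded. Nuclear genes are transcribed in the nucleus and the mitochondrial genome in the organelle itself, and neurons of the brain depend heavily on this pathway for ATP. In a preparation of nuclei, mitochondrial transcripts come with carried-over cytoplasm or organelles, so their share of UMIs also depends on how the nuclei were prepared.

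Promoters were inspected because many nuclear members moved together between groups. Of the 92 nuclear members, 74 had a promoter entry in RefSeq (GRCm38.p6). Those with no entry included Ndufs1, Ndufb9, Sdhc, Uqcrq, Uqcrc2, Cox6a2, Atp5a1 and Atp5f1. The 250 bases before the start were searched on both strands for an NRF1 core (GCGCA and GCGC with 1 base of any kind between them), for CCGGAAG, the core bound by ETS factors such as GABPA, and for AANATGGCG, the YY1 core. NRF1 matches were found in 14 of the 74 members (18.9%) against 4.23% of the promoters of 27025 genes, ETS matches in 14 members (18.9%) against 7.83%, and YY1 matches in 3 members (4.05%) against 1.29%. The following 120 bases before the start are shown, 5′ to 3′ on the strand of the gene, for members that behaved differently in what follows, with NRF1 and ETS matches in capitals. All 6 genes lie on the minus strand. Atp5h also has an NRF1 match in the 250 bases searched, which lies outside the 120 bases shown.
Cox6a1 (chr5:115348959-115349078): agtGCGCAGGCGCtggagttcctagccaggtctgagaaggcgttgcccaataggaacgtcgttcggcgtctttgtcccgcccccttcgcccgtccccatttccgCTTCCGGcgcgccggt
Sdhd (chr9:50603850-50603969): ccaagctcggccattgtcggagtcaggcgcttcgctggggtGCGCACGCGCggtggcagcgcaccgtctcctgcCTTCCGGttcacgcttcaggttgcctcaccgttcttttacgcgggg
Sdha (chr13:74350241-74350360): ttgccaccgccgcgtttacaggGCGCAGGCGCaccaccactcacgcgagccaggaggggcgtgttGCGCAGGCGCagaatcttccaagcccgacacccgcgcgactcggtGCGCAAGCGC
Uqcrh (chr4:116075071-116075190): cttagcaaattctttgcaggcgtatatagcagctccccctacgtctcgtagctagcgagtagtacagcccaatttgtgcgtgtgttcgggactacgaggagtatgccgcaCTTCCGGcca
Atp5h (chr11:115419920-115420039): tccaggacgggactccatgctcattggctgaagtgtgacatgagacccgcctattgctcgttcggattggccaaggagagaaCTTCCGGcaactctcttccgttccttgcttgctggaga
Ndufs3 (chr2:90904722-90904841): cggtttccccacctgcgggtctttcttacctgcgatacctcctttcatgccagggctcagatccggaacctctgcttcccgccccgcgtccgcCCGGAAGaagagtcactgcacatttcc
Calls of members with and without a match were counted side by side, with no test. In the hippocampus, 110 of 135 tests of members with an NRF1 or ETS match were higher in GF than in SPF mice, as were 202 of 256 tests of members without either. Over all genes, 19.6% of hippocampal tests were higher and 16.1% lower. In PFC 45 of 108 and 99 of 198 were higher, while 14 and 30 were lower, against 25.5% and 24.9% over all genes. The matches describe letters in these windows and were not tested as binding sites.

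The summed share of the nuclear members separated GF from SPF and CGF mice in the hippocampus. In excitatory neurons, nuclear members made up 0.368%, 0.421% and 0.406% of all UMIs in the 3 GF mice. The share was 0.181%, 0.191% and 0.235% in SPF mice and 0.175%, 0.189% and 0.215% in CGF mice. GF values lay above those of both other groups without overlap, and the same held in each of the other 5 cell types, with microglia at 0.892 to 1.17% in GF against 0.454 to 0.593% in SPF mice.

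In PFC excitatory neurons the nuclear share of GF mice overlapped that of SPF mice and lay below that of CGF mice, at 0.296%, 0.257% and 0.295% for GF mice, 0.319%, 0.326% and 0.277% for SPF mice, and 0.339%, 0.298% and 0.402% for CGF mice. Interneurons overlapped as well (0.398 to 0.452% in GF, 0.348 to 0.415% in SPF mice). Glial cells of PFC did separate. Astrocytes were at 0.592 to 0.697% in GF and 0.385 to 0.473% in SPF mice, and microglia at 0.774 to 0.972% in GF and 0.370 to 0.486% in SPF mice, again without overlap.

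The mitochondrial members behaved oppositely in the 2 regions. In hippocampal excitatory neurons their share was 0.437%, 0.733% and 0.785% in GF mice, 0.151%, 0.0890% and 0.370% in SPF mice and 0.0472%, 0.0757% and 0.140% in CGF mice. In PFC excitatory neurons it was 0.360%, 0.262% and 0.478% in GF mice, but 1.35%, 1.67% and 2.63% in SPF mice and 0.994%, 1.96% and 1.33% in CGF mice. In excitatory neurons GF mice were therefore highest in the hippocampus and lowest in PFC, without overlap in either region. The same separation held in the other 5 types of each region except hippocampal interneurons, where GF mouse 5 (0.366%) lay below SPF mouse 32 (0.404%). The same order held in PFC microglia, with 0.541 to 0.705% in GF and 2.77 to 4.94% in SPF mice.

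The ratio of nuclear to mitochondrial UMIs summed these changes. In PFC excitatory neurons GF mice stood at 0.617 to 0.983, SPF mice at 0.105 to 0.236 and CGF mice at 0.152 to 0.341, and in PFC microglia 1.33 to 1.43 against 0.0796 to 0.134 and 0.104 to 0.191. GF values were apart from both other groups in all 6 cell types of PFC. In the hippocampus the ratios of GF and SPF mice overlapped in every cell type, for example 0.517 to 0.840 and 0.636 to 2.15 in excitatory neurons.

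**Figure D1:**
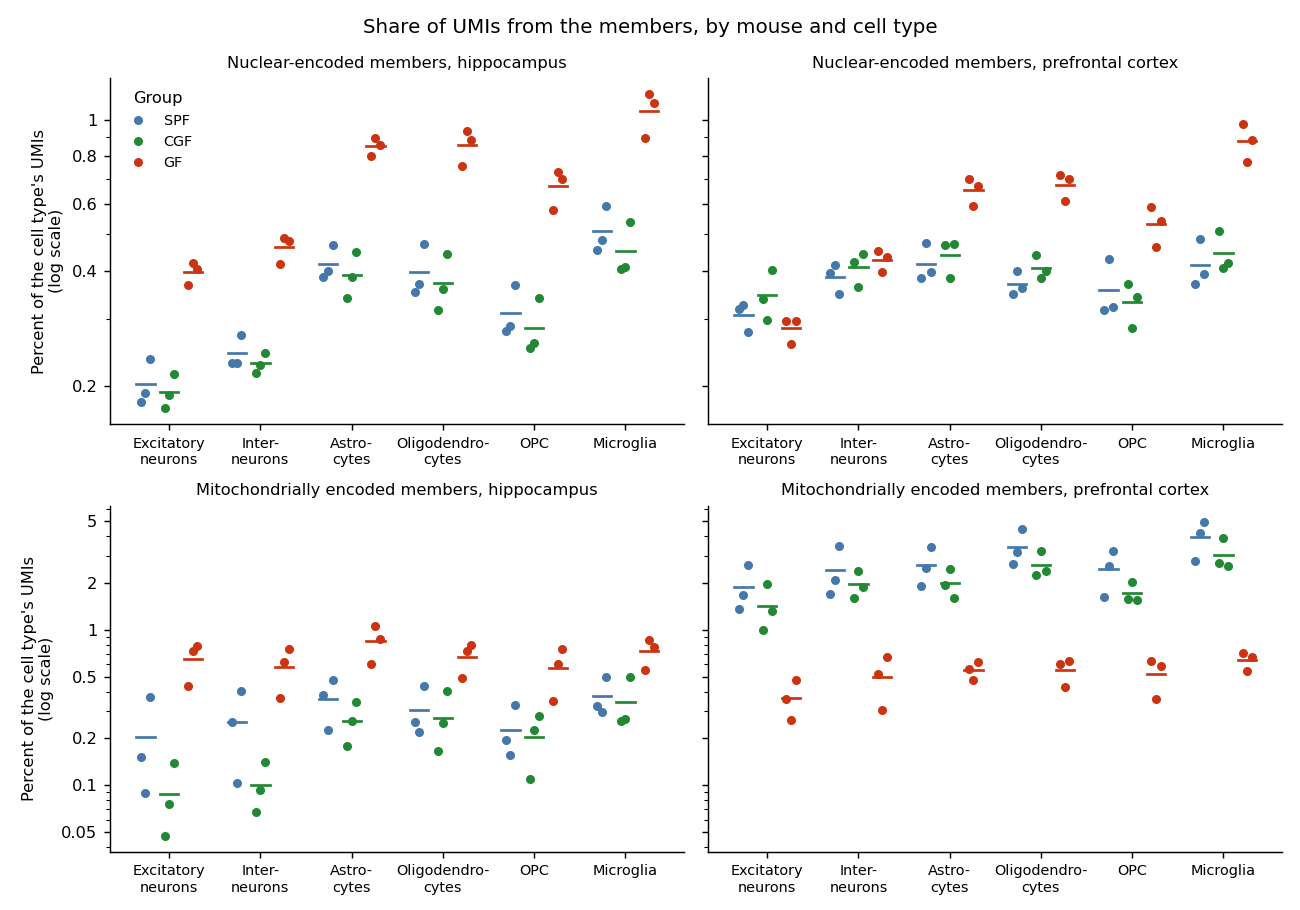
Share of the UMIs of each cell type (percent, log scale) from the nuclear-encoded (top) and mitochondrially encoded (bottom) members. Each point is 1 mouse and each line a group mean (SPF blue, CGF green, GF red, 3 mice each). In PFC the mitochondrial share of every GF mouse lies below every SPF and CGF mouse, while in the hippocampus GF means are the highest in all panels.

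Gene by gene, the raw UMIs of a cell type were added up within each mouse and tested with edgeR (quasi-likelihood, Benjamini-Hochberg over all genes of that cell type and region). A test here is 1 member in 1 cell type, and "higher" or "lower" means an adjusted p below 0.05. In hippocampus, GF mice had higher levels than SPF mice in 356 of 472 tests of nuclear members and lower levels in 4, with a median log2 fold change of 1.08. Over all genes, 19.6% of tests were higher and 16.1% lower, and the median log2 fold change of all genes lay between -0.03 and 0.04 in the 6 cell types. Of the 87 nuclear members tested, 75 were higher in at least 1 cell type and 39 of the 65 tested everywhere were higher in all 6. The 3 GF values lay above the 3 SPF values in 375 of the 472 tests (79.4%, against 25.3% over all genes) and below in 6 (1.27%, against 22.3%).

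As fitted, the rise was seen in neurons and glia. In excitatory neurons 71 of 87 nuclear members were higher and 2 lower (all genes: 25.3% and 21.1%), and in interneurons 65 of 83 were higher and 1 lower (21.9% and 19%). Astrocytes had 62 of 83 higher and 1 lower (17.5% and 15.1%) and oligodendrocytes 66 of 82 higher and none lower (20% and 15.5%). In OPC 45 of 68 and in microglia 47 of 69 were higher, with no member lower, where all genes gave 11.4% and 8.52% in OPC and 13.0% and 9.29% in microglia. Hippocampal fold changes also moved with the span of genes, as described further on. A trend on gene span, transcript length and GC content, here called the length and GC trend, was fitted over all genes. With that trend taken out, 156 of the 472 tests were higher and 7 lower, where all genes gave 11.3% and 8.21%. Excitatory neurons then had 49 higher and 4 lower and interneurons had 27 and 1. Microglia had 11 of 69 higher, OPC 9 of 68, oligodendrocytes 31 of 82 and astrocytes 29 of 83. Astrocytes also had 2 lower, and microglia, OPC and oligodendrocytes none. No share over all genes is given by cell type for this fit. The higher counts of OPC and microglia lay near the 11.3% of all genes, so they alone do not show a rise in those types. The filter on low counts removed 5 nuclear members in excitatory neurons, 24 in OPC and 23 in microglia of the hippocampus.

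Values by complex are given as fitted. With the length and GC trend taken out, complex I had 60 tests higher and 2 lower, complex II 0 and 1, complex III 18 and 0, complex IV 26 and 2 and complex V 40 and 0, with medians of 0.39, -0.04, 0.43, 0.40 and 0.49. Complex I is the largest complex, and 153 of 195 tests of its nuclear members were higher in GF hippocampus and none lower (median log2 fold change 1.12). Ndufb10, an accessory subunit of the membrane arm, was at 22.9, 27.8 and 22.7 normalised CPM in excitatory neurons of GF mice and at 8.09, 8.72 and 12.9 CPM in SPF mice, a log2 fold change of 1.30 ± 0.19 (SE, n = 3 mice per group, edgeR adjusted p = 0.000573). The GF values lay above all SPF values. The change of Ndufb10 was largest in microglia, at 2.2 ± 0.37. Ndufb8 and Ndufb9, also of the membrane arm, rose by 1.59 to 2.15 and by 1.63 to 1.99 on the log2 scale in the cell types where they were tested. Of the core subunits, Ndufs3 rose by 0.57 to 1.05 in the 6 types, while Ndufs1 had log2 fold changes of -0.14 to 0.06 that did not pass the test. Ndufs4, which helps complete the NADH-oxidising arm, passed only in excitatory neurons, at 0.16 ± 0.06 (edgeR adjusted p = 0.0385).

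The 4 genes of complex II were higher in 6 of 24 tests (median log2 fold change 0.19), a share near the 19.6% of all genes. Sdha, the flavoprotein that binds succinate, was at 55.5, 53.0 and 55.8 CPM in excitatory neurons of GF mice, 55.1, 57.5 and 57.5 of SPF mice and 57.0, 61.7 and 61.4 of CGF mice, so that GF and SPF values overlapped (log2 fold change -0.05 ± 0.06, edgeR adjusted p = 0.496). Sdhc, a membrane anchor, gave -0.24 to 0.18 and passed in no cell type. Sdhd, the other anchor, was higher in 4 of the 6 types by 0.86 to 1.04, and Sdhb, the iron-sulfur subunit, in excitatory neurons and oligodendrocytes by 0.20 and 0.61. The promoters of Sdha and Sdhd printed above both hold NRF1 matches.

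Complex III members were higher in 39 of 48 tests (median 1.24). Uqcr10, Uqcrq and Uqcrh, small accessory subunits, were higher in all 6 cell types, with log2 fold changes of 1.45 to 1.87, 1.32 to 1.65 and 1.09 to 1.40. Uqcrh stood at 64.3, 71.6 and 68.9 CPM in GF and 28.6, 32.8 and 32.9 CPM in SPF excitatory neurons, with no overlap (log2 fold change 1.12 ± 0.11, edgeR adjusted p = 7.8e-05). Uqcrc2, a core protein, gave -0.16 to 0.49 and passed nowhere.

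Complex IV and complex V members were higher in 58 of 68 and 77 of 84 tests (medians 1.28 and 1.09), and 2 tests of complex IV were lower. Ndufa4, named for complex I but now assigned to complex IV, was at 113, 139 and 132 CPM in excitatory neurons of GF mice, 31.8, 38.0 and 49.3 of SPF mice and 25.9, 35.4 and 47.7 of CGF mice. GF values were separate from both other groups, which overlapped each other (GF against SPF 1.69 ± 0.22, edgeR adjusted p = 0.000258). Cox8a, Cox7a2, Cox7b, Cox7c and Cox6a1, small nuclear-encoded subunits of complex IV, were each higher in all 6 types, by 0.98 to 1.76. Other isoforms did not all follow. Cox7b2 fell by 0.69 in excitatory neurons and by 1.02 in astrocytes, and these were both of the lower tests. Cox6b2 rose by 2.83 in astrocytes and by 1.64 in oligodendrocytes, at a mean of only 0.733 CPM over all gated nuclei of the 18 libraries. Cox4i2 passed in excitatory neurons (1.32 ± 0.36) at only 0.356 to 0.686 CPM in GF mice, and Cox6a2 and Ndufa4l2 did not pass. Genes this low can enter the test on their GF sums alone. Cox7a1 was under the filter in every fit of a single region. Cox4i1, Cox8c and Ndufa13 were listed at 0 UMIs in all libraries and Cox8b had 81 UMIs over all gated nuclei, so nothing can be said of them.

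Among ATP synthase genes, the 3 genes for subunit c, which forms the rotor ring, were all higher in all 6 types: Atp5g1 by 1.5 to 1.69, Atp5g2 by 0.91 to 1.57 and Atp5g3 by 0.97 to 1.38. Atp5a1 and Atp5b, which form the catalytic head, gave 0.30 to 0.61 and 0.47 to 0.64, although Atp5a1 did not pass in microglia. Atp5h, a subunit of the stalk, was at 54.9, 61.5 and 59.6 CPM in GF and 18.6, 19.9 and 30.2 CPM in SPF excitatory neurons (1.36 ± 0.22, edgeR adjusted p = 0.00085), again without overlap.

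Assembly factors and associated members had 23 of 53 tests higher and 2 lower (median 0.71). Both lower tests were Ndufaf5, an assembly factor of complex I, which fell by 0.21 in excitatory neurons and by 0.49 in interneurons. With the length and GC trend taken out, assembly factors gave 9 higher and 2 lower and associated members 3 and 0.

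The mitochondrially encoded members were also higher in GF hippocampus, in 48 of 68 tests with none lower (median 1.11), and all 68 fold changes were positive. mt-Co3, a core subunit of complex IV, was at 1146, 1828 and 1950 CPM in GF and 373, 205 and 821 CPM in SPF excitatory neurons (1.82 ± 0.51, edgeR adjusted p = 0.015). mt-Co1, the catalytic subunit, was at 472, 785 and 831 CPM in GF and 221, 137 and 500 CPM in SPF mice. There GF mouse 5 lay below SPF mouse 32, and the change of 1.28 ± 0.48 did not pass (edgeR adjusted p = 0.0503). GF and SPF values were fully separated in 28 of 68 tests, with GF mice above (41.2%, against 25.3% over all genes). DESeq2 called 23 of these tests higher, and with the trend on gene length and GC content taken out, 1 was higher and 1 lower. The count also rested on single mice: it was 24 without GF mouse 6, 26 without GF mouse 7, 25 without SPF mouse 30, 24 without SPF mouse 31 and 66 without SPF mouse 32, the SPF mouse with the highest mitochondrial share. The nuclear count stayed between 317 and 349 when any 1 mouse was left out.

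**Figure D2:**
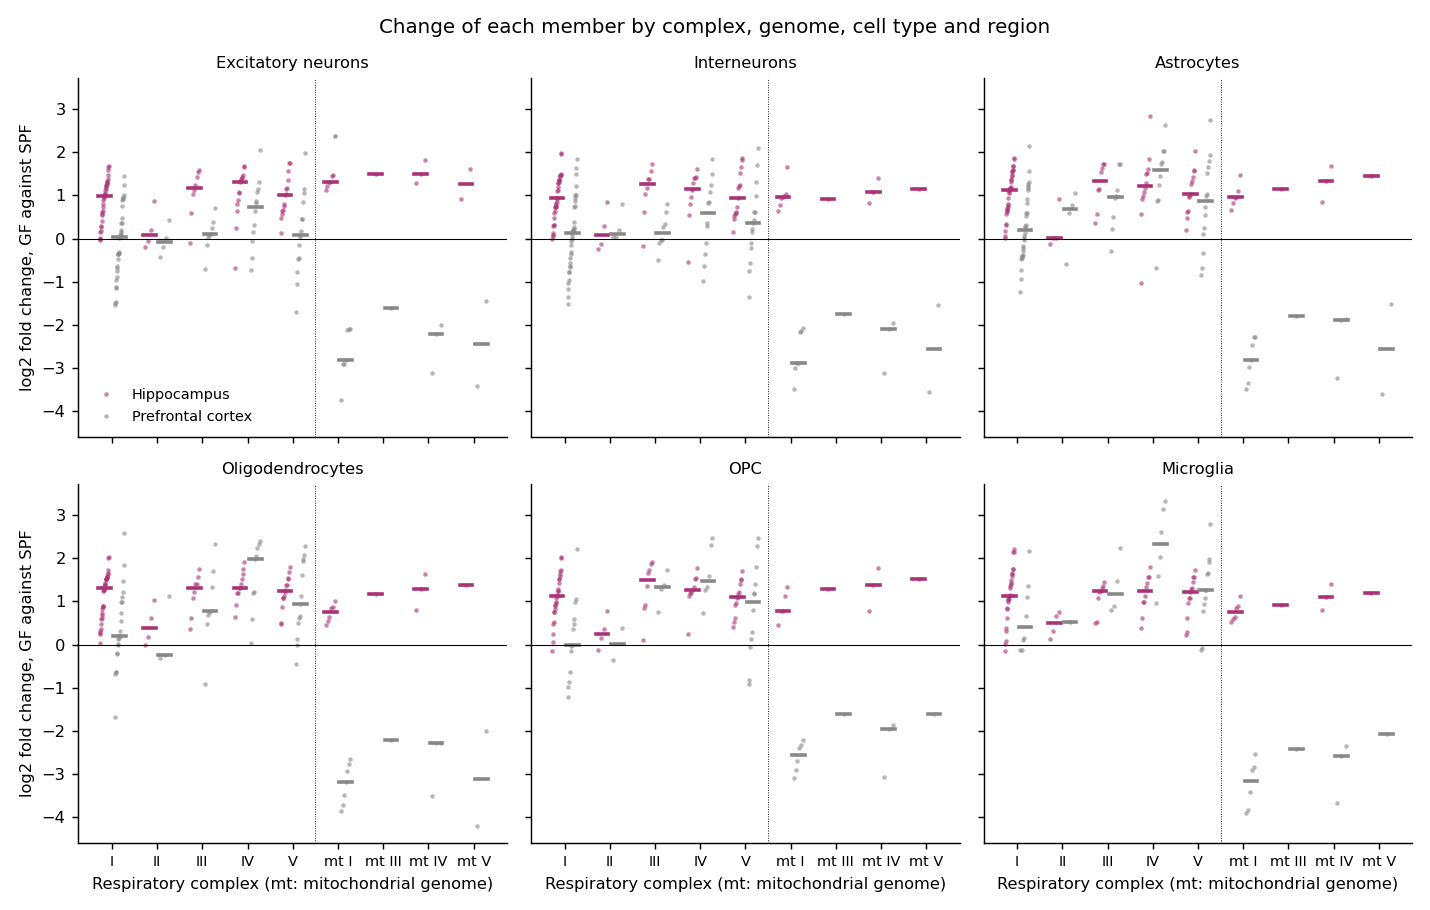
log2 fold change of GF against SPF for every member tested (points) and its median (lines), by respiratory complex and genome, in hippocampus (purple) and PFC (grey), 1 panel per cell type. Assembly factors and associated members are not drawn. Mitochondrially encoded members sit above 0 in the hippocampus and below 0 in PFC in all 6 panels, while nuclear complex IV has the highest nuclear median of PFC in each panel.

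In PFC the nuclear members moved both ways and all mitochondrial members fell. GF mice were higher than SPF mice in 175 of 371 tests of nuclear members and lower in 51 (median log2 fold change 0.44), where all genes gave 25.5% higher and 24.9% lower. GF values lay above SPF values in 185 tests (49.9%, against 30.8% over all genes) and below in 60 (16.2%, against 29.1%). The smaller sums of SPF and CGF mice put more members under the filter in PFC, 53 of the nuclear members in OPC and 61 in microglia. A member could pass this filter on its GF sums alone, so members high in GF mice may be favoured among those tested. With every sum thinned to the smallest of its cell type and region, 124 tests were higher and 45 lower. No share over all genes is given for the thinned fit, so these counts cannot be set against the 371 tests. Thinning matched the total UMIs of the sums and not the UMIs per nucleus. Beyond thinning, the part of depth in the PFC results was not tested. With the trend on gene length and GC content taken out, the balance turned to 79 higher and 118 lower, where all genes gave 23.0% and 26.4%.

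In each cell type more nuclear members were higher than lower as fitted. With the length and GC trend taken out, excitatory neurons turned to 13 higher and 47 lower and interneurons to 13 and 38. Microglia then had 12 and 4, OPC 9 and 4, oligodendrocytes 14 and 8, and astrocytes 18 and 17. No share over all genes is given by cell type for that fit. As fitted, PFC excitatory neurons had 32 of 84 nuclear members higher and 23 lower (all genes: 32.1% and 30.9%), so the share of members called was near that of all genes in the higher direction. Interneurons had 33 of 84 higher and 16 lower (26.0% and 24.5%). In astrocytes 41 of 74 were higher and 7 lower (22.3% and 21.8%), and in oligodendrocytes 33 of 59 were higher and 2 lower (19.8% and 20.2%). OPC had 17 of 39 higher and 3 lower (16.0% and 16.7%), and microglia 19 of 31 higher and none lower (18.9% and 20.2%). Both sets may favour members high in GF mice, as given for the filter above. Median log2 fold changes were 0.08 and 0.19 in excitatory neurons and interneurons, 0.64 and 0.77 in astrocytes and oligodendrocytes, 0.75 for OPC and 1.26 for microglia, over sets of members that differed between the types. Differences between cell types were not tested.

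By complex, complex I had 46 tests higher and 29 lower of 143 (median 0.12), where all genes gave 25.5% and 24.9%. In excitatory neurons 12 of its 35 members tested were higher and 12 lower, near the 32.1% and 30.9% of all genes there. Complex II had 6 higher and 2 lower of 18 and complex III 18 and 3 of 40, with medians of 0.12 and 0.69. Complex IV had 41 higher and 4 lower of 55 (median 1.23), and complex V 45 higher and 11 lower of 81 (median 0.66). Assembly factors and associated members gave 19 higher and 2 lower of 34 (median 0.55). With the length and GC trend taken out, complex I gave 8 higher and 63 lower, complex II 2 and 4, complex III 3 and 14, complex IV 22 and 11 and complex V 36 and 17, so that the direction turned for complexes I, II and III. Assembly factors then gave 6 higher and 9 lower, and associated members 2 and 0.

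Ndufs7, a core subunit of complex I next to the quinone site, was at 14.3, 11.3 and 14.5 CPM in excitatory neurons of GF mice. It was at 39.8, 38.7 and 38.0 CPM in SPF and 32.4, 38.0 and 40.1 CPM in CGF mice, so GF mice lay below all others (GF against SPF -1.54 ± 0.12, edgeR adjusted p = 5.08e-07). It was lower in 4 of the 5 cell types tested. Ndufa3, an accessory subunit, was at 10.1, 9.76 and 10.4 CPM in GF against 26.8, 29.7 and 28.6 CPM in SPF mice and was lower in all 4 types tested. Ndufs3 was lower in both neuronal types and in astrocytes, by 0.72 to 0.96, and Ndufa10 in both neuronal types. Ndufs4, on the other hand, was at 114, 116 and 118 CPM in GF and 58.6, 61.7 and 66.8 CPM in SPF mice, without overlap, and was higher in 5 of 6 types, but with the length and GC trend taken out it was higher in 2 and lower in 1.

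Atp5h showed the strongest fall of the nuclear members in PFC excitatory neurons. It was at 45.5, 37.9 and 45.0 CPM for GF mice, 134, 141 and 144 for SPF mice and 123, 141 and 170 for CGF mice (GF against SPF -1.71 ± 0.12, edgeR adjusted p = 2.17e-07). Atp5o, a neighbouring stalk subunit of the same enzyme, went the other way, at 138, 110 and 113 CPM for GF mice, 28.6, 34.5 and 28.5 for SPF mice and 39.1, 35.1 and 42.5 for CGF mice (1.98 ± 0.12, edgeR adjusted p = 7.43e-08). For each gene GF mice were apart from both other groups. Subunits of 1 enzyme thus differed in direction in the same sums.

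Complex IV had the highest median of the 5 complexes as fitted, while complex V had it with the length and GC trend taken out (0.47 against 0.25). Cox7c was at 43.8, 37.6 and 36.0 CPM in GF and 10.6, 7.71 and 10.1 CPM in SPF excitatory neurons of PFC, without overlap (2.05 ± 0.14, edgeR adjusted p = 2.21e-07). Ndufa4 rose in all 6 types, by 1.14 in excitatory neurons and by 3.33 ± 0.37 in microglia, where it was at 613, 473 and 577 CPM in GF and 52.7, 90.0 and 30.9 CPM in SPF mice. The SPF values rest on few counts, since those sums held 53006 to 94886 UMIs against 428591 to 569660 in GF mice. Cox7a2 and Cox6a1 also rose in all 6 types, by 0.82 to 3.14 and 1.07 to 2.04. Cox8a did not pass in excitatory neurons (0.16 ± 0.20, edgeR adjusted p = 0.516) but rose by 0.82 to 2.61 in the other 5 types. Sdha, flat in hippocampus, rose by 0.77 in astrocytes and by 1.13 in oligodendrocytes of PFC. With the length and GC trend taken out, Ndufa4, Cox7a2 and Cox8a were each higher in 4 types of PFC, while Cox6a1 stayed higher in all 6.

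All 74 tests of mitochondrial members were lower in GF than in SPF mice in PFC (median -2.61), and GF values lay below SPF values in each. mt-Co1 was at 431, 376 and 611 CPM in excitatory neurons of GF mice, 2765, 3754 and 5675 of SPF mice and 2261, 4564 and 2614 of CGF mice (GF against SPF -3.10 ± 0.32, edgeR adjusted p = 5.4e-06). mt-Nd6, which lies on the other strand of the genome and overlaps mt-Nd5, fell by 3.74. In excitatory neurons mt-Atp6 had the smallest change of the 13 genes, -1.45. Leaving out any 1 of the 6 mice gave 75 or 76 lower tests, because more pairs then passed the filter. Thinning the sums to equal totals gave 73.

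**Figure D3:**
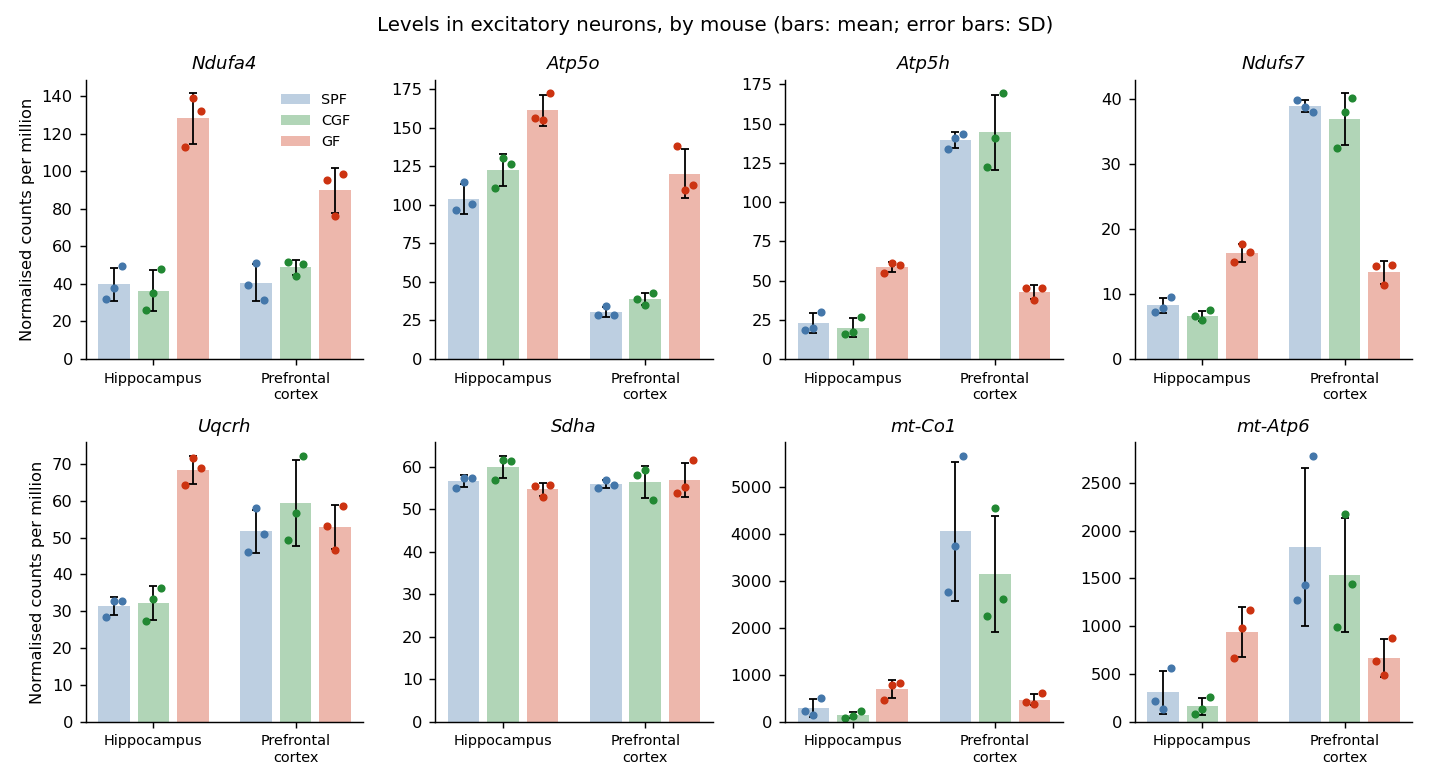
Normalised CPM of 8 members in excitatory neurons of each mouse (points), with the group mean (bars) and SD (error bars), for SPF (blue), CGF (green) and GF (red), 3 mice each. Ndufa4 and Atp5o are high in GF mice of both regions, Atp5h and Ndufs7 are high in GF hippocampus but low in GF PFC, and Sdha is level.

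The difference between regions was tested itself, as the interaction of region and group over all 18 sums of a cell type. The change in hippocampus exceeded that in PFC in 75 of 78 tests of mitochondrial members and fell short in none. All 13 mitochondrial members entered this fit in each type, although only 68 of these tests passed the filter in hippocampus alone. Among nuclear members the change in hippocampus exceeded that in PFC in 136 of 476 tests and fell short in 23, where all genes gave 13.8% and 16.1%. These shares are not matched for the span of genes. All genes under 5 kb had medians of 0.74 in hippocampal and 0.03 in PFC excitatory neurons for GF against SPF mice. The part of span in the 136 tests is not given here. The median interaction of all genes was between -0.11 and -0.04 in the 6 types, so values are relative to that. For mt-Co1 in excitatory neurons the interaction was 4.34 ± 0.62 (edgeR adjusted p = 1.52e-05). For Atp5h it was 3.02 ± 0.25 and for Ndufs7 2.48 ± 0.17, and both genes passed in all 6 cell types (edgeR adjusted p = 4.4e-08 and 5.68e-09 in excitatory neurons). Atp5o fell short in hippocampus in 4 types, by 1.39 ± 0.16 in excitatory neurons (edgeR adjusted p = 1.07e-06).

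The same mouse gave both regions. With the mouse as a replicate block, the interaction was higher for 132 and lower for 27 tests of nuclear members and higher for 74 of mitochondrial members, so the pairing of regions moved no count by more than 1.5 times.

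By member, 42 of the 87 nuclear genes tested were higher somewhere in both regions and lower nowhere, among them Ndufa4, Cox7c, Cox8a, Uqcrh, Atp5g1 and Sdhd (48.3%, against 15.3% of the 18843 genes tested). A further 20 were higher in hippocampus and lower in PFC (23.0%, against 6.82%). They included Atp5h, Atp5j, Cox6c, Ndufa2, Ndufa3, Ndufa10, Ndufs3, Ndufs7, Sdhb and Uqcrc1, and 12 of the 20 are structural members of complex I. Atp5b, Atp5d and Cox5b were higher in hippocampus and went both ways in PFC. Cox7b2 was lower in hippocampus and higher in PFC. Another 10 were called higher in hippocampus without a call in PFC (11.5%, against 6.88%), of which Cox4i2 and Cox6b2 were not tested in PFC, and 6 were called higher in PFC without a call in hippocampus (Atp5s, Cox6a2, Ndufs1, Ndufv2, Sdha and Sdhc; 6.90%, against 11%). These counts do not show that the regions differ. A gene tested in more cell types can be called somewhere more easily, and members were tested in more types than genes at large. The shares are not matched for this. The interaction of Sdhc passed in no type, and that of Cox6a2 passed in 1 type with the larger change in hippocampus. Ndufaf5 was called lower in hippocampus and not called in PFC, and Ndufa4l2, Ndufaf6, Ndufb4 and Uqcrc2 were called in neither. The classes depend on the length and GC trend. With it taken out, 52 nuclear members were higher and 5 lower somewhere in hippocampus, and 30 were higher and 51 lower somewhere in PFC, where Uqcrh was higher in no type and lower in 2. Sdhd then passed in no type of either region.

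**Figure D4:**
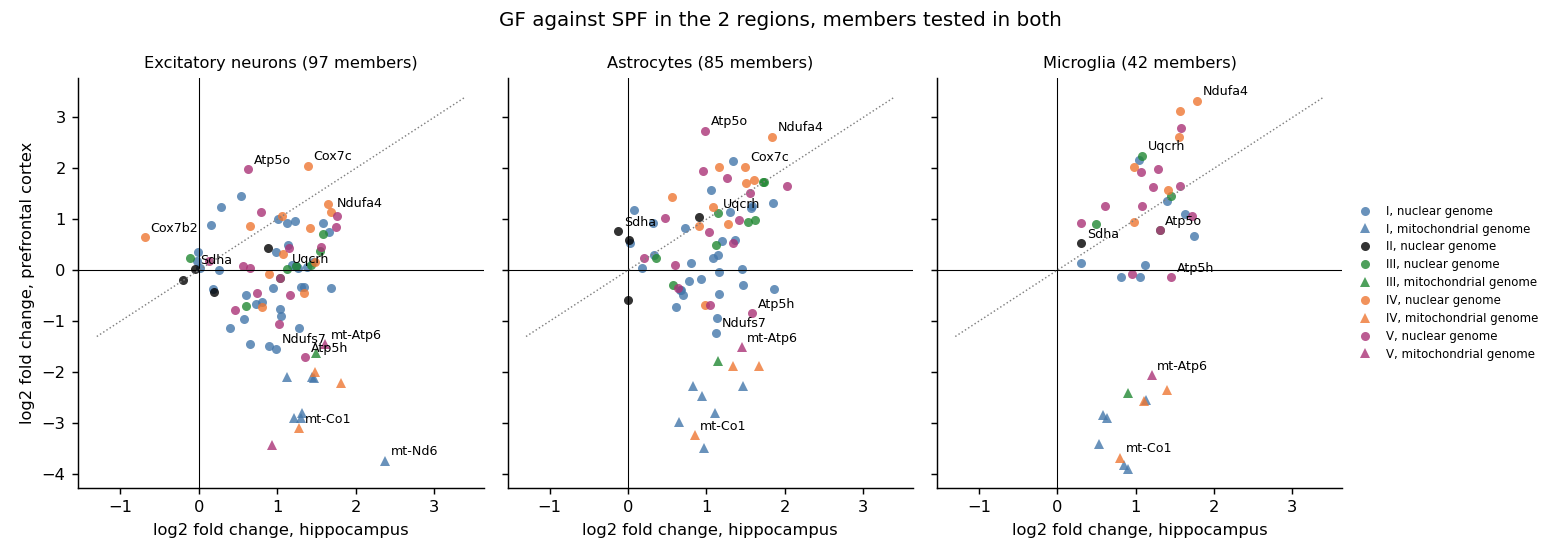
log2 fold change of GF against SPF in hippocampus (x axis) and PFC (y axis) for members tested in both regions, in excitatory neurons, astrocytes and microglia. Circles are nuclear and triangles mitochondrial members, colours mark the complex and the dotted line marks equal change. Triangles lie at the lower right in all 3 panels, and nuclear members spread across the horizontal axis in excitatory neurons but lie mostly above it in microglia.

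The levels behind these fold changes were set side by side, as CPM of the sum averaged over 3 mice, for members with at least 5 in every group and region. In GF excitatory neurons, 1 of 74 nuclear members and none of 10 mitochondrial members differed more than 2-fold between PFC and hippocampus. In SPF excitatory neurons 26 nuclear and all 10 mitochondrial members did, and in CGF excitatory neurons 37 and 10. Median log2 ratios of PFC to hippocampus for the mitochondrial members were -0.80 for GF mice, 3.13 for SPF and 4.05 for CGF mice. In microglia the count of nuclear members over 2-fold was 0 of 75 for GF mice, 24 for SPF and 22 for CGF mice. Microglial sums of PFC held only 53006 to 94886 UMIs in SPF and 49710 to 127662 in CGF mice, against 428591 to 569660 in GF mice. Members near the limit of 5 CPM thus rest on very few UMIs in SPF and CGF mice. How far this moved the counts was not tested, and no share over all genes is given for microglia. Genes at large did likewise, with 549 of 9386 over 2-fold in GF and 2314 in SPF excitatory neurons, so the pattern was not one of these members alone. The regions come from separate libraries of each mouse, and whether library preparation contributes was not tested.

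The make-up of the mitochondrial UMIs differed as well. Over all kept nuclei of PFC, mt-Co1 took 21.4 to 23.4% of the UMIs of the 13 genes in SPF and 21.3 to 23.6% in CGF mice but 11.2 to 13.1% in GF mice. mt-Atp6 took 9.20 to 10.8% in SPF and 17 to 17.7% in GF mice. In hippocampus mt-Co1 took 11.5 to 12.0% for GF mice, 13.9 to 15.2% for SPF and 15.1 to 15.9% for CGF mice, and mt-Co3 26.8 to 28.2% in GF against 21.7 to 22.9% in SPF mice. All of these ranges separated GF from SPF mice. For mt-Co1 the range of GF mice in hippocampus lay within their range in PFC, whereas for mt-Atp6 it lay below it (15.6 to 16.9%).

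GF and CGF mice were compared in the same way, with the GF libraries shared with the comparison above, so the values of both comparisons are not independent. In hippocampus 362 of 472 nuclear tests were higher in GF mice and 5 lower (median 1.16, all genes 20.1% and 17.2%), and 57 of 68 mitochondrial tests were higher and none lower (median 1.57). In PFC 158 of 371 nuclear tests were higher and 58 lower (median 0.37, all genes 25.7% and 24.7%), and all 74 mitochondrial tests were lower (median -2.19). With the length and GC trend taken out, 183 nuclear tests of the hippocampus were higher and 11 lower (all genes 12.2% and 8.65%), and 20 mitochondrial tests higher and 3 lower. The nuclear tests of PFC turned to 62 higher and 137 lower (all genes 23.6% and 25.9%). In excitatory neurons the log2 fold changes of GF against CGF were 1.82 for Ndufa4, 1.56 for Atp5h and 1.30 for Ndufs7 in hippocampus, and 0.88, -1.76 and -1.46 in PFC. Atp5o gave 0.39 in hippocampus and 1.63 in PFC, and mt-Co1 2.31 and -2.73. All 10 of these passed the edgeR test.

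CGF and SPF mice were compared with each other from the same libraries. In hippocampus no nuclear or mitochondrial test passed (edgeR), with 30 of 472 nuclear and 17 of 68 mitochondrial tests at an unadjusted p below 0.05. No share over all genes is given at that threshold. Of the 17 mitochondrial tests, 11 were in interneurons, 4 in excitatory neurons and 2 in astrocytes. DESeq2 called 1 nuclear and 0 mitochondrial tests. The edgeR test with no filter on low counts called 1 nuclear test higher and 14 of 78 mitochondrial tests lower in CGF hippocampus. No share over all genes is given for that fit. With the filter, all genes gave 0.178% higher and 0.121% lower. In PFC 1 of 371 nuclear tests was higher and none lower, where all genes gave 0.107% and 0.115%, and no mitochondrial test passed. DESeq2 called 2 nuclear and 0 mitochondrial tests there, edgeR with no filter 2 nuclear and 1 mitochondrial, and 35 nuclear and 17 mitochondrial tests of PFC had an unadjusted p below 0.05. The 1 called gene was Cox7c in excitatory neurons, at 18.8, 15.7 and 19.8 CPM in CGF and 10.6, 7.71 and 10.1 CPM in SPF mice, a change of 0.94 ± 0.15 (edgeR adjusted p = 0.0199). No nuclear test was called higher in a fit of these 2 groups alone, or without CGF mouse 17 or 19 or SPF mouse 30 or 31, and 3 were without CGF mouse 18. The CGF values lay above the SPF values and below the GF values given above. The fold changes of mitochondrial members were mostly negative, with 14 of 68 positive in hippocampus and 4 of 74 in PFC and medians of -0.36 and -0.35, and every one with an unadjusted p below 0.05 was lower in CGF mice. For mt-Co1 in excitatory neurons the difference was -1.03 ± 0.48 in hippocampus and -0.37 ± 0.30 in PFC, and neither passed (edgeR adjusted p = 0.363 and 0.625).

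Levels moved with the span of the gene in hippocampus. Over all genes of excitatory neurons, the median for GF against SPF mice was 0.74 (log2) among those under 5 kb, with 52.6% of them higher, and -0.30 among those of 50 kb and over, with 46.4% lower. Nuclear members span 953 to 155909 bases with a median of 7419. Under 5 kb their median was 1.35 (25 of 28 higher), from 5 to 10 kb 1.03 (27 of 28), from 10 to 20 kb 0.65 (16 of 17, all genes 0.22) and from 20 to 50 kb -0.01 (2 of 11, all genes -0.03). Members lay above all genes of their span up to 20 kb. In PFC excitatory neurons the medians of all genes were between -0.02 and 0.04 in the 5 classes of span, and those of interneurons between 0.01 and 0.05. In OPC they went from 0.21 under 5 kb to 0.04 at 50 kb and over, with values below 0 between. A fall with span was seen in the other glial types of PFC, from 0.41 under 5 kb to -0.05 at 50 kb and over in astrocytes (40.4% and 17.4% higher), from 0.35 to -0.02 in oligodendrocytes (38.0% and 16.8%) and from 0.56 to -0.04 in microglia (43.5% and 13.4%).

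**Figure D5:**
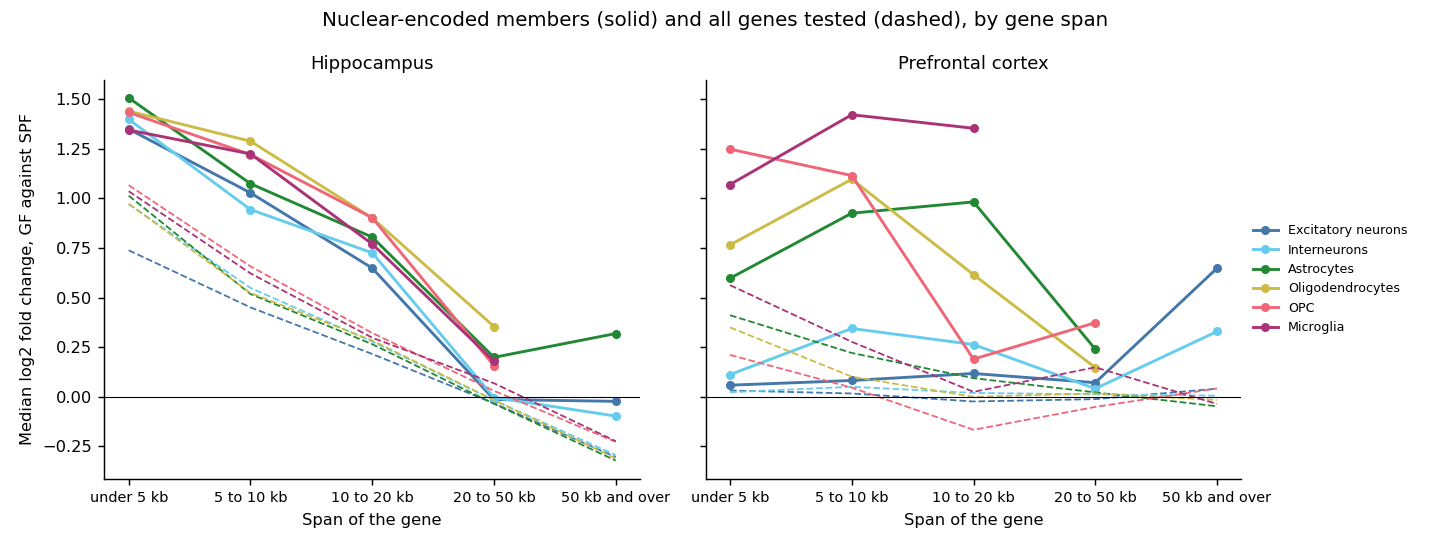
Median log2 fold change of GF against SPF by the span of the gene, for nuclear members (solid lines, classes with at least 3 members) and all genes tested (dashed lines), 1 colour per cell type. In hippocampus both fall with span up to 50 kb and members lie above all genes in the 3 shorter classes, and in PFC excitatory neurons both stay near 0 up to 50 kb.

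With the trend on gene length and GC content taken out, nuclear tests of the hippocampus were higher in 156 and lower in 7 cases in place of 356 and 4. Ndufa4, Atp5g1, Atp5f1 and Ndufb5 remained higher in all 6 types, by 0.73 to 1.18, 1.18 to 1.42, 0.50 to 1.03 and 1.03 to 1.38. Other genes that had been higher in all 6 types of the hippocampus lost calls. Atp5g3, Atp5b, Atp5o and Ndufs3 then passed in none, Cox6a1 and Cox7c in 1, Ndufb10 in 2, Uqcr10 and Uqcrh in 3, Cox8a, Cox7a2, Cox7b and Ndufb9 in 4, and Uqcrq, Atp5g2 and Atp5h in 5. In PFC 79 nuclear tests were higher and 118 lower, in place of 175 and 51, so the balance turned, and all 74 mitochondrial tests stayed lower. Atp5h was then lower in all 6 types of PFC and Ndufs7 in the 5 tested, while Atp5f1 and Cox6a1 were higher in all 6. In PFC neurons the medians of all genes moved little with span, as given above. Which of span, transcript length and GC content moved the calls was not tested, nor was their part in the result beyond this.

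Neighbouring pathways were described by counts in GF against SPF mice, to be read against the 19.6% higher and 16.1% lower of all genes in hippocampus and the 25.5% and 24.9% in PFC. These shares are not matched for the span of genes, with which hippocampal levels moved. Pathway counts and fold changes are given as fitted only, and the part of gene span in them was not tested. Of the electron carriers and complex III genes outside the rule, 21 of 40 tests were higher and 2 lower in hippocampus (median 1.11) and 16 of 31 higher and 4 lower in PFC (0.60). Cycs, which encodes somatic cytochrome c, was higher in all 6 types of each region, by 1.29 to 1.59 in hippocampus and by 1.93 to 3.81 in PFC, while Cyc1, the cytochrome c1 of complex III, rose by 1.05 to 1.55 in hippocampus but fell by 1.0 and 0.71 in excitatory neurons and interneurons of PFC. The tricarboxylic acid cycle had 19 higher (25%) and 5 lower of 76 in hippocampus (median 0.21) and 21 higher (35%) and 13 lower of 60 in PFC (0.07). Its Mdh2 rose in all 6 types of the hippocampus (0.73 to 1.27), whereas Idh3g, a regulatory subunit of isocitrate dehydrogenase, fell in all 6 types of PFC (1.54 to 2.65 on the log2 scale).

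Glycolysis had 46 higher (48.4%) and 2 lower of 95 in hippocampus (median 0.54) and 26 higher (31%) and 25 lower (29.8%) of 84 in PFC (0.13), with Aldoa listed under 2 gene identifiers that were both counted. Gpi1 fell in all 6 types of PFC, by 0.63 to 2.22. Genes that express the mitochondrial genome or control its biogenesis had 14 higher (15.6%) and 11 lower of 90 in hippocampus (median 0.18) and 6 higher and 9 lower of 56 in PFC (-0.01). Among them Ppargc1a, a coactivator of mitochondrial biogenesis, fell in all 6 types of the hippocampus, by 0.37 to 1.51, and Slirp, which binds mitochondrial RNA, rose in 4. Tfam and Nrf1, factors for the mitochondrial and nuclear genes, gave -0.09 to 0.63 and -0.22 to 0.25 there. Tfam passed in excitatory neurons alone and Nrf1 in no type. The counts for glycolysis and the values of Ppargc1a are likewise as fitted and not matched for span.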

How the data were processed

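Nuclei of both regions of 9 mice were profiled by 10x Genomics single-nucleus RNA-seq, and the authors deposited raw UMI counts per gene and barcode for 18 libraries, made per the file headers with Cell Ranger 3.1.0 (the processing notes of the submitters also name mm10 and CASAVA 1.8). Sources disagree on the kit version. Members, marker and gene lists were chosen with earlier results of these data known. Groups were taken from the labels. Nuclei over 10% mitochondrial UMIs were left out and no doublet caller was run. A nucleus was assigned when at least 2 markers of a list were detected and its score was at least 2 times the next. Of 138000 nuclei kept, 102705 were assigned, 3154 went to vascular, ependymal or choroid plexus cells, 32141 to none, and 10866 lay near the limit.

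UMIs were summed per mouse, region and type and tested with edgeR 4.0.16 (filterByExpr, TMM, quasi-likelihood, 9 sums per fit, 3 groups), in R 4.3.3. The fit was tested on simulated counts. CPM are counts scaled to a total of 1000000 with TMM factors. Shares and levels set side by side between regions use the plain total. Sums held 27678779 to 42105402 UMIs in hippocampal excitatory neurons but 53006 to 94886 in PFC microglia of SPF mice. Genes named were all mitochondrial members, the Sdh genes, the 4 structural subunits with the highest level in each other complex, isoform pairs, and the highest and lowest fold change in each type and region. Others named in the text as examples were chosen after their values were seen. The study's tests of differential expression treat nuclei as replicates, so mice were used instead. Per the study's methods, CGF mice were raised in 1 isolator with cages shared between mice. Replicates may thus share a cage, and p-values measure the spread between these mice.

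Same-numbered samples are the same mouse. Deviations from group means correlated between the regions of a mouse at 0.153 to 0.336 in excitatory neurons (19339 genes), against -0.224 to -0.0508 for other mice. Deviations cancel within a group, so the values for other mice are not independent of those for the same mouse. Other types gave weaker pairing, down to -0.0136 to 0.0940 in microglia, where 6 of 9 mice lay above the others. Of the members, 27 nuclear and 2 mitochondrial genes overlap a gene on the other strand, and 5 and 5 overlap one on the same strand. The latter include Ndufb8 and Ndufb9, and also Cox4i1 and Ndufa13, which were listed at 0 UMIs. Overlap may affect the counts of these genes, which was not tested. Alternatives were DESeq2 1.42.0, RLE size factors, library sizes without abundant genes, no filter, thinning, Leiden clusters in place of the gate, no mitochondrial limit, fits of 2 groups, single mice left out, the replicate block, and removal of a length and GC trend. The name of 1 member is not reported here.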

Additional observations from a re-analysis of the deposited data

Results flagged for a closer look

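The change of GF against SPF mice was tested for a difference between hippocampus and PFC in each cell type (edgeR interaction, adjusted over all genes of the cell type), and the counts that passed are given here, by gene for the genes named by rule. It passed with a larger value in hippocampus in 75 tests of mitochondrial members and in 136 of nuclear members, and with a smaller value in 23 tests of nuclear members. These counts are as fitted and not matched for the span of genes. Of the genes named by rule, mt-Atp6, mt-Co1, mt-Co2, mt-Co3, mt-Cytb, mt-Nd1, mt-Nd2, mt-Nd3, mt-Nd4, mt-Nd4l, mt-Nd5, Atp5h and Ndufs7 passed in 6 cell types. mt-Atp8, Ndufa10, Ndufa3 and Ndufb10 passed in 5, and mt-Nd6, Ndufs3 and Atp5o in 4, of which Atp5o had the smaller change in hippocampus. In hippocampus alone mt-Atp8 passed the filter in 1 type and mt-Nd6 in 2, so their interactions rest on low hippocampal counts. Atp5b and Atp5d passed in 3. Atp5g1, Atp5g2, Cox7b, Ndufa2, Ndufc2, Uqcr10, Uqcrh and Uqcrq passed in 2, as did Ndufs4 and Sdha with the smaller change in hippocampus. A difference in 1 cell type was found for Atp5a1, Cox6a2, Cox8a, Ndufb9 and Sdhb, larger in hippocampus, and for Cox6a1, Cox7b2, Cox7c, Ndufaf5 and Ndufs1, smaller there. Depth, the mitochondrial share and the group move together in the PFC libraries, as given above, and their part in these differences was not tested beyond the thinned counts.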

How the results depend on the processing

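Among recomputed counts of higher or lower tests with all mice kept, 204 stayed within 1.5 times the reported count and 24 did not. Many of these came from removing the trend on gene length and GC content. For GF against SPF it gave 156 higher and 7 lower nuclear and 1 higher and 1 lower mitochondrial tests in hippocampus, and 79 higher and 118 lower nuclear tests in PFC. For GF against CGF it gave 183, 11, 20 and 3 in hippocampus and 62 and 137 in PFC, and together with the replicate block 14 lower interactions of nuclear members. The replicate block alone, which pairs the regions of a mouse, gave 132 higher and 27 lower nuclear and 74 higher mitochondrial interactions. DESeq2 gave 23 higher mitochondrial tests for GF against SPF in hippocampus, and 1 and 2 higher nuclear tests for CGF against SPF in hippocampus and PFC. With no filter, nuclear tests lower in GF than in CGF hippocampus were 8, CGF against SPF gave 1 and 2 higher nuclear tests in the 2 regions, and 14 and 1 lower mitochondrial tests. Thinning left 104 higher nuclear tests of GF against CGF in PFC. Clusters gave 2 and fits of 2 groups 0 higher nuclear tests of CGF against SPF in PFC. Causes were not tested. Leaving out single mice gave, for GF against SPF in hippocampus, 317 to 349 higher and 1 to 4 lower nuclear and 24 to 66 higher mitochondrial tests. It gave 3 to 6 lower nuclear tests for GF against CGF in hippocampus, 0 to 3 lower mitochondrial tests for CGF against SPF in hippocampus and 0 to 3 higher nuclear tests in PFC. For GF against SPF and GF against CGF, the count of lower mitochondrial tests in PFC stayed within 1.5 times under every alternative run. Of the differences in summed share, 59 moved by less than 1 SD, and 1 moved further, that of nuclear members in hippocampal astrocytes without the abundant genes (0.511 percentage points). In PFC microglia and OPC, 61 and 53 nuclear members were under the filter, where sums of SPF mice held 76 to 124 and 83 to 136 nuclei.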
